A study of Mus musculus with 12 samples.

Results

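Klhl2 was described here together with 6 further kelch-like adaptor genes (Klhl3, Klhl4, Klhl5, Klhl9, Klhl20 and Klhl24), the cullin scaffold gene Cul3 and the substrate kinase genes Wnk1 and Wnk4. These 10 genes were taken by symbol from the 56941 gene rows of the deposited table. Klhl2 was selected on its FPKM values, which were lower in the libraries labelled cKO, so its values are given as a description with no test. The other 9 genes were listed for family or pathway, with earlier results of these data known.

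The study measured messenger RNA by sequencing in hippocampal astrocytes of naive male adult mice, collected by flow sorting on the astrocyte surface antigen ACSA-2. The genotype labelled Ctrl is Tnfrsf1bfl/fl (A1, A2 and A8), and the genotype labelled cKO is GfapcreERT2:Tnfrsf1bfl/fl (A4, A9 and A10). All mice therefore carry the floxed gene of the TNF receptor TNFR2, and only cKO mice carry the inducible Cre recombinase, which is driven by the Gfap promoter and acts only where that promoter is active. CreERT2 needs tamoxifen to act, and its schedule is not given in the sources used here. Each A number has an S1 and an S2 library. These were averaged into 1 unit, which gives 3 units a genotype. The labels define neither A nor S and do not say that the A numbers are separate animals, so the p-values measure the spread between these units.

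KLHL proteins are adaptors of the CUL3 ubiquitin ligase. Their BTB domain binds the cullin, and their kelch repeats form a propeller that holds the substrate, which is then marked with ubiquitin. KLHL2, first described as the actin-binding brain protein Mayven, and its close relative KLHL3 both bring WNK kinases to the ligase. WNK kinases act through the kinases SPAK and OSR1 on cation-chloride cotransporters, and so on cell volume and chloride.

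The adaptors lower in cKO, Klhl2 and Klhl4, start from promoter windows of unlike base composition. Their RefSeq promoter windows (GRCm38.p6, 250 bases before to 50 bases after the start of the gene) are shown because these genes lay lower together. They run 5′ to 3′ on the strand of the gene, with CpG dinucleotides in capitals.
Klhl2, chr8:64849875-64850174, minus strand: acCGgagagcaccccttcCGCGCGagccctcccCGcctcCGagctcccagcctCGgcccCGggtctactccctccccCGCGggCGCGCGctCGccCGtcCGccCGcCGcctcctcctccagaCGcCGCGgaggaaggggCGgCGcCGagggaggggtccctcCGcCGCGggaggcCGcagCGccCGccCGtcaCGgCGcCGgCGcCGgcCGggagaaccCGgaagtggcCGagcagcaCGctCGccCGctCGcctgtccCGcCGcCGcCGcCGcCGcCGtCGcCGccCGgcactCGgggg
Klhl4, chrX:114474083-114474382, plus strand: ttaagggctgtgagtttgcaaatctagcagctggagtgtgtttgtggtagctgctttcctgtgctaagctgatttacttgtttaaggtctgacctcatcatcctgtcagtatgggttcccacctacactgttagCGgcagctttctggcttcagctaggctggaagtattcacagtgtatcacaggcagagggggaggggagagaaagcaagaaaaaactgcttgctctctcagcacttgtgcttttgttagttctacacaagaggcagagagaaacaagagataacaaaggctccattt
The Klhl2 window had 54 CpG and 82.7% GC, and 99.7% of the 32851 mouse windows of this length had fewer CpG. The Klhl4 window had 1 CpG and 46.3% GC, and 5.43% of the windows had fewer CpG. A promoter window was matched for 9 of the 10 genes, and Klhl5 had 2. The GC box GGGCGG, searched on both strands, was found 4 times in the Klhl2 window and not in those of Klhl3 and Klhl4. It was in a window of 7 of the 9 genes and in 35.7% of all windows. The letters of the TATA box (TATAAA) and the AP-1 site (TGANTCA) were in none of these genes' windows, against 13.6% and 7.81% of all windows. CCAAT was in 1 of the 9 genes (all windows 37.4%), and the E-box CACGTG was in 1 (7.15%).

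Library depth, recovered from the steps between low values, ran from 17311872 to 35323322 reads. The ablated gene did not check the labels: Tnfrsf1b was listed at 0 in 9 libraries, had 4 reads in A1 S1, and had 10 and 22 reads in the A4 libraries, which are labelled cKO. Because A4 held the most reads of the ablated gene, the genotype differences below are given with and without it for the genes and lists the results turn on. A4 also had the highest summed microglial markers (36.5 FPKM, against 14.2 to 25.4 FPKM in the other units). The source of its Tnfrsf1b reads was not tested, and these few reads do not show that A4 is mislabelled. Without A4, limma again called 0 genes, and 923 had an unadjusted p under 0.05. Defining astrocyte markers were high, with Gja1 at 262 ± 27.3 FPKM (Ctrl) against 322 ± 41.0 FPKM (cKO) and Aldh1l1 at 40.5 ± 1.73 against 47.04 ± 1.14 FPKM (SD over 3 units). FPKM are fragments per kilobase of gene length per 1000000 assigned fragments, so levels can be ordered between genes per deposited length. That length is fixed for each gene (22825 bases for Wnk1, 4174 bases for Klhl9). It may not be the length of the transcripts present, so the order of levels is approximate.

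In the Ctrl units the 10 genes fell into an order with Klhl9 (37.2 ± 3.67 FPKM), Cul3 (32.1 ± 5.37 FPKM) and Wnk1 (25.9 ± 5.04 FPKM) at the top (SD, n = 3 each). Klhl5 (18.3 ± 1.92 FPKM) and Klhl24 (18.1 ± 2.79 FPKM) followed. Klhl4 (9.82 ± 0.828 FPKM) and Klhl2 (7.91 ± 0.599 FPKM) lay in the middle, above Klhl20 (2.28 ± 0.941 FPKM), Klhl3 (1.32 ± 1.02 FPKM) and Wnk4 (0.0460 ± 0.0796 FPKM). Neighbours in this order had overlapping unit ranges from Klhl9 down to Klhl24 and again between Klhl20 and Klhl3. The ranges did not overlap between Klhl24 and Klhl4, Klhl4 and Klhl2, Klhl2 and Klhl20, or Klhl3 and Wnk4. In cKO the mean of Wnk1 lay below that of Klhl24, and the ranges of Klhl4 and Klhl2 overlapped. In 7 of the 10 genes A8 was the lowest of the 3 Ctrl units. The share of all genes with A8 lowest was not counted. The A8 libraries had the fewest genes above 0 of the 12 libraries (21342 in S1 and 21572 in S2). By limma without A8, 937 genes were higher and 1494 lower in cKO at an unadjusted p under 0.05, against 523 and 826 with it.

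**Figure D1:**
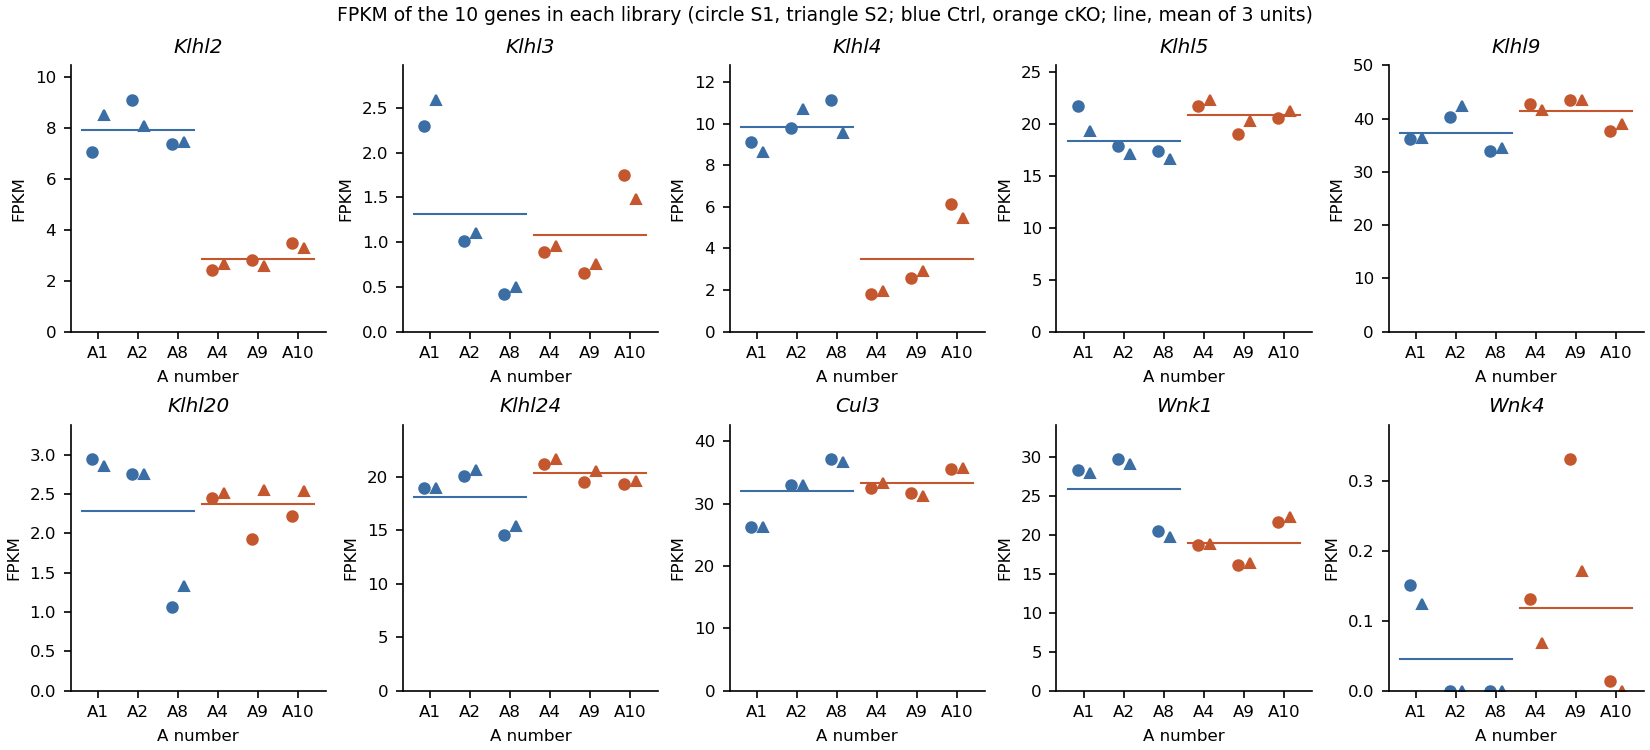
FPKM of the 10 genes (vertical axis, from 0) in each library, by A number (horizontal axis), with circles for S1, triangles for S2 and lines for the mean of the 3 units of a genotype. All cKO libraries lie below all Ctrl libraries for Klhl2 and Klhl4, while the genotypes overlap for the other genes.

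Klhl2 (ENSMUSG00000031605, chromosome 8, 65192709 to 65302669, minus strand, 40 exon entries) was lower in every library labelled cKO than in any Ctrl library. In Ctrl it measured 7.04 and 8.50 FPKM in A1 (S1 and S2), 9.08 and 8.06 FPKM in A2, and 7.37 and 7.42 FPKM in A8. In cKO it measured 2.42 and 2.63 FPKM in A4, 2.801 and 2.58 FPKM in A9, and 3.46 and 3.29 FPKM in A10. The lowest Ctrl library thus lay well above the highest cKO library, and A10 was the highest cKO unit. These values rest on 452 to 2449 reads a library. The mean was 2.87 ± 0.450 FPKM in cKO (SD, n = 3), which puts Ctrl 2.76-fold above cKO. On the log2(FPKM + 1) scale, where differences of low genes come out too small, it was -1.21 (SE 0.17), and without A4 it was -1.14 (SE 0.20). In these sorted pools, fewer cells of a type and less RNA per cell cannot be told apart.

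Klhl3, which encodes the closest relative of KLHL2 among these adaptors and the one best known for degrading WNK kinases in the kidney, was low and varied within the genotypes. Its unit values were 2.44, 1.05 and 0.460 FPKM in Ctrl A1, A2 and A8, and 0.922, 0.706 and 1.62 FPKM in cKO A4, A9 and A10. A1 was the highest and A8 the lowest of all 6 units, so the cKO units lay inside the Ctrl range. The log2 difference was -0.09 (SE 0.43, limma adjusted p = 0.984), and it changed sign to 0.24 without A1 and to 0.04 without A9.

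Klhl4 (ENSMUSG00000025597, chromosome X, 113384030 to 113470526) was the other adaptor whose libraries did not overlap. Its Ctrl libraries measured 9.12 and 8.62 FPKM (A1), 9.78 and 10.7 FPKM (A2), and 11.1 and 9.57 FPKM (A8). Its cKO libraries measured 1.80 and 1.94 FPKM (A4), 2.59 and 2.91 FPKM (A9), and 6.15 and 5.47 FPKM (A10). A10 thus stood well above A4 and A9, and the mean in cKO was 3.48 ± 2.07 FPKM (SD, n = 3). The log2 difference was -1.37 (SE 0.32), which did not pass the threshold of 0.05 (limma adjusted p = 0.344). Without A4 it was -1.10 (SE 0.29, limma adjusted p = 0.809).

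The other adaptors had overlapping units and differences below 0.2 on the log2 scale. Klhl9 (ENSMUSG00000070923), a single-exon gene in the deposited annotation whose protein acts in mitosis, measured 41.3 ± 2.64 FPKM in cKO (log2 difference 0.15, SE 0.12, limma adjusted p = 0.861). Klhl5 measured 20.8 ± 1.18 FPKM in cKO (0.18, SE 0.13, limma adjusted p = 0.840). Klhl24, whose protein binds a kainate receptor subunit and degrades keratin 14 in skin, measured 20.3 ± 0.994 FPKM (0.17, SE 0.15, limma adjusted p = 0.877). Klhl20, an adaptor for DAPK1 and ULK1, measured 2.37 ± 0.120 FPKM in cKO. Its Ctrl units were 2.90, 2.75 and 1.20 FPKM, so A8 alone lay below every cKO unit. The log2 difference of Klhl20 was 0.08 (SE 0.28, limma adjusted p = 0.980), and it changed sign to -0.19 without A8. Without A4 the differences of Klhl5, Klhl9, Klhl20 and Klhl24 were 0.14, 0.14, 0.05 and 0.13. A p above the threshold does not show that these genes are equal between genotypes.

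Of the 10 genes, 9 reached the mean of 1 FPKM needed for testing. Klhl2, which was picked for its fall, is left out of this comparison. Of the rest, Klhl4 alone had units that did not overlap, and it was lower in cKO. Over all 17540 tested genes the units did not overlap in 7.22% for lower and 5.76% for higher values in cKO, or 13% in either direction. By limma, 0 of 17540 genes (0%) had an adjusted p under 0.05, and 1349 (7.69%) had an unadjusted p under 0.05. The S1 and S2 libraries of one unit differed by at most 0.28 on the log2(FPKM + 1) scale in any of the 10 genes, and that difference was in Klhl20.

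Little sequence long enough to be confused by reads of 125 bases was shared. The longest exact run shared by GENCODE M21 transcripts of any pair of the 7 adaptors was 28 bases (Klhl3 and Klhl24), and it was 20 bases for Klhl2 and Klhl3. Klhl2 shared 0 of its 9453 windows of 125 bases with another gene, and Klhl4 shared 0 of 3704. Klhl9 shared 13.3% of its windows with Gm26566, and Wnk4 shared 2.11% with its antisense neighbour Gm11615, so these values are less certain. Of 115 values above 0 in the 10 genes, 109 came out at whole reads.

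In the whole kelch-like family, Klhl9 had the highest mean level over the 12 libraries (39.3 FPKM), ahead of Ivns1abp (30.8 FPKM), Klhl5 (19.6 FPKM) and Klhl24 (19.2 FPKM). The family list held 50 genes. Of these, 34 reached a mean of 1 FPKM and were tested, with Klhl4 at rank 14, Klhl2 at rank 16, Klhl20 at rank 30 and Klhl3 at rank 34. The unit values of Ivns1abp ran from 20.95 to 41.1 FPKM in Ctrl and from 18.1 to 34.9 FPKM in cKO, so it spread far more than Klhl9.

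**Figure D2:**
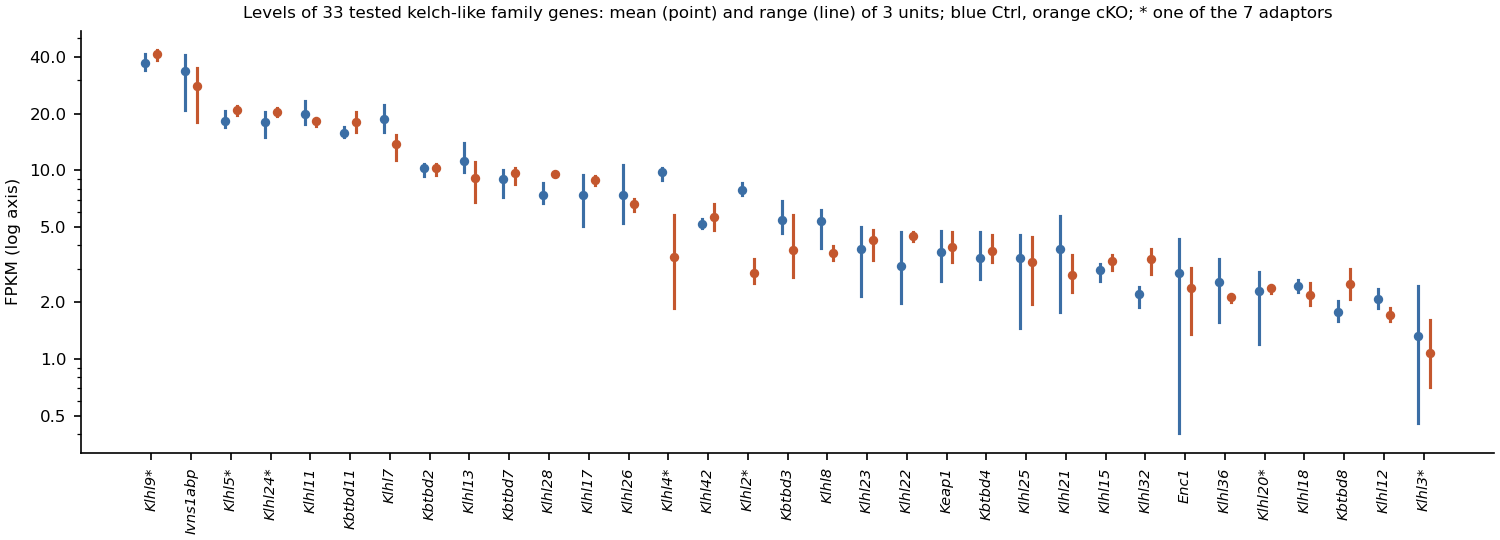
Level of 33 of the 34 tested kelch-like family genes in FPKM (vertical log axis), ordered by their mean over the 12 libraries, with points for the mean and lines for the range of 3 units in Ctrl (blue) and cKO (orange). Klhl9 is at the left end with 37.2 and 41.3 FPKM and Klhl3 at the right end with 1.32 and 1.08 FPKM, and the Klhl2 and Klhl4 ranges of the genotypes are apart.

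The family as a whole was balanced between the genotypes. Of the 34 tested members, 17 had a higher and 17 a lower mean in cKO, and the median log2 difference was -0.0038, against -0.01 over all tested genes. None passed the threshold (0 higher and 0 lower). At an unadjusted p under 0.05 there were 3 lower and 0 higher, where the background was 4.71% lower and 2.98% higher. This split depended on the scaling: with upper quartile scaling the family had 2 lower and 2 higher, and all tested genes had 625 lower and 761 higher, against 826 and 523 here. Klhl2, selected on this contrast, was among the 3 lower without that scaling, and leaving it out 2 of 33 were lower, Klhl4 among them. Leaving out Klhl2, units did not overlap in 3 of 33 family members lower in cKO (Klhl4 and Klhl7 among them). They did not overlap in 3 higher (Klhl28, Klhl32 and Kbtbd8). Over all tested genes these shares were 7.22% lower and 5.76% higher. Without A4 the counts at an unadjusted p under 0.05, over the list with Klhl2 in it, were again 3 lower and 0 higher.

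**Figure D3:**
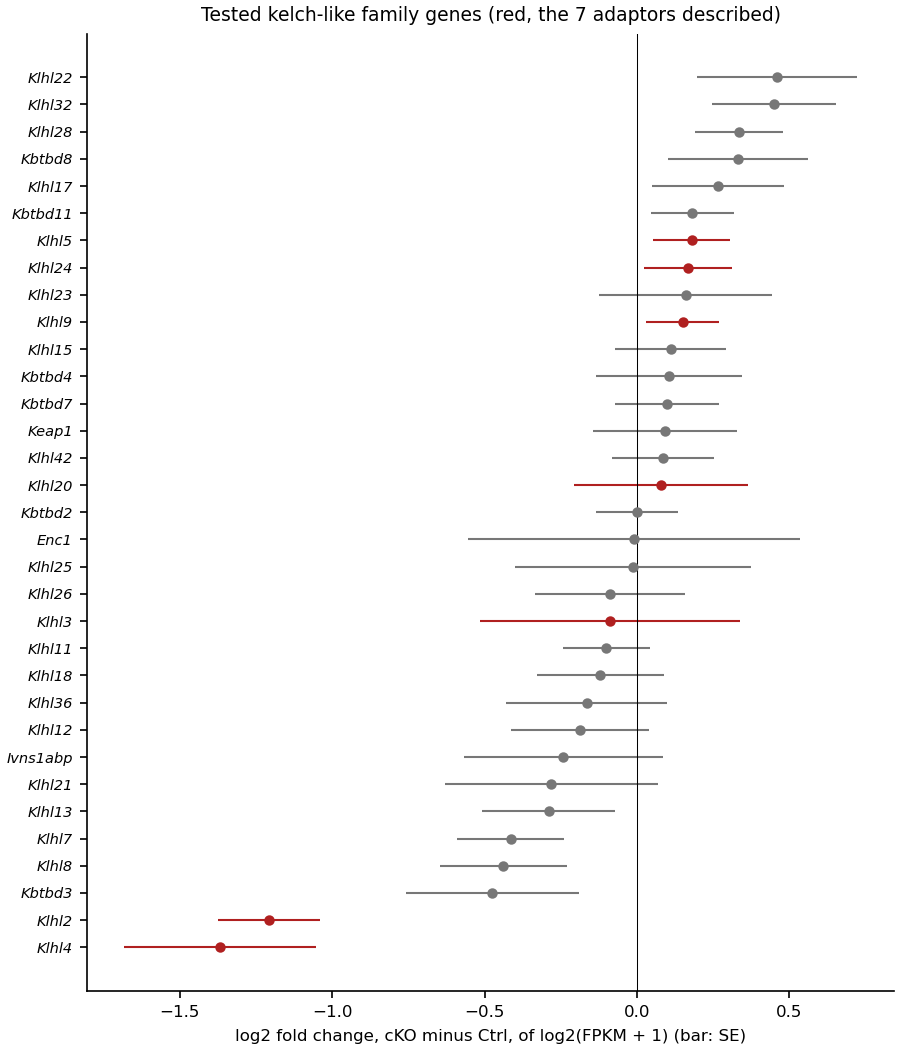
Log2 difference of cKO minus Ctrl on the log2(FPKM + 1) scale (horizontal axis, bars are the SE) for 33 of the 34 tested kelch-like family genes, with the 7 adaptors in red. Klhl4 (-1.37) and Klhl2 (-1.21) lie at the low end, and the other genes drawn lie between -0.47 (Kbtbd3) and 0.46 (Klhl22).

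Cul3 (ENSMUSG00000004364, chromosome 1, 80242640 to 80318197), the scaffold that joins the adaptors to the RING protein RBX1, was the most abundant of the 8 cullin genes per length in Ctrl. It measured 26.3, 33.1 and 36.9 FPKM in Ctrl A1, A2 and A8 and 32.9, 31.5 and 35.7 FPKM in cKO A4, A9 and A10. The cKO units lay inside the Ctrl range. The log2 difference was 0.07 (SE 0.15, limma adjusted p = 0.967), was 0.07 without A4 and changed sign to -0.07 without A1. The next cullin in Ctrl was Cul1 at 21.4 ± 1.72 FPKM, whose units all lay below those of Cul3, and then Cul4b at 14.0 ± 2.35 FPKM. Of the 7 other cullins, 0 passed the threshold and 0 had an unadjusted p under 0.05. Cul5 was the one whose units did not overlap (9.95 ± 0.285 FPKM in Ctrl, 8.39 ± 0.963 FPKM in cKO, limma adjusted p = 0.803), and Cul9 (log2 difference 0.20) and Cul2 (0.07) overlapped. Over all tested genes the units did not overlap in 13% in either direction.

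Of the 25 genes of the CUL3 ligase core and of neddylation, the modification by which NEDD8 switches cullins on, 25 were tested and 0 passed in either direction. Their median log2 difference was 0.01. Nedd8 itself was the one gene with an unadjusted p under 0.05, with 16.8, 14.2 and 14.3 FPKM in Ctrl and 11.4, 9.88 and 11.4 FPKM in cKO (log2 difference -0.44, SE 0.14, limma adjusted p = 0.495). Nae1, a subunit of the NEDD8-activating enzyme, had the opposite sign (0.39, SE 0.18, limma adjusted p = 0.689). Without A4 the differences were -0.47 for Nedd8 and 0.28 for Nae1. Cops6 (-0.28) and Cops2 (-0.20), subunits of the signalosome that removes NEDD8, and Cand1 (0.06), which exchanges the adaptors, did not pass. Units did not overlap in 4 genes of this list of 25 lower in cKO and in 1 higher, against 7.22% and 5.76% of all tested genes. Cand1 changed sign to -0.03 without A4.

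Of 21 other BTB adaptors of CUL3, 20 were tested, 0 passed, and 2 were lower at an unadjusted p under 0.05 with a list median of -0.08. Over all tested genes 4.71% were lower at that unadjusted p, and the median was -0.01. Kctd13, an adaptor for the GTPase RhoA, measured 9.88, 12.1 and 7.94 FPKM in Ctrl and 2.20, 2.57 and 6.26 FPKM in cKO (log2 difference -1.31, SE 0.34, limma adjusted p = 0.392). As in Klhl4, A10 was the highest of the cKO units, and without A4 the difference of Kctd13 was -1.09. Lztr1, an adaptor for RAS proteins, measured 11.2 ± 1.90 FPKM in Ctrl against 6.99 ± 0.246 FPKM in cKO (SD over 3 units; log2 difference -0.60, limma adjusted p = 0.408), and its difference without A4 was -0.62. Zbtb16 (-0.56), Btbd1 (-0.13), Spop (-0.14) and Rhobtb3 (-0.14) overlapped between genotypes, and Spop changed sign to 0.01 without A2. Zbtb16 was at -0.33 without A4 and at -0.34 without A2. Without A4, 2 of these adaptors were again lower at an unadjusted p under 0.05.

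Wnk1 (ENSMUSG00000045962, chromosome 6, 119900930 to 120015633), the kinase that both KLHL2 and KLHL3 bind, was the higher of the 2 substrate kinases. Its unit values were 28.1, 29.4 and 20.1 FPKM in Ctrl A1, A2 and A8, and 18.7, 16.3 and 21.9 FPKM in cKO A4, A9 and A10. A8 lay between the cKO units, so the genotypes overlapped through that unit. The log2 difference was -0.42 (SE 0.19, limma adjusted p = 0.674), -0.42 without A4 and -0.58 without A8 (limma adjusted p = 0.208). Wnk4 was too low to be tested. It had 12 and 16 reads in A1, 0 in A2 and A8, 12 and 10 in A4, 24 and 20 in A9, and 1 and 0 in A10. At this depth only A1, A4 and A9 were above the floor of 3 reads, so both genotypes held units with and without it.

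Of 16 genes of the WNK, SPAK and OSR1 pathway, 12 were tested, 0 passed, and 2 were lower at an unadjusted p under 0.05. The list median was -0.20, against -0.01 over all tested genes, of which 4.71% were lower at that unadjusted p. Slc12a2, which encodes the chloride-loading cotransporter NKCC1, measured 39.3, 37.7 and 21.2 FPKM in Ctrl and 9.57, 13.1 and 20.95 FPKM in cKO (log2 difference -1.13, SE 0.33, limma adjusted p = 0.451). A8 and A10 nearly met, and without A4 the difference was -0.89. Sgk1, a kinase that WNK1 activates, measured 10.4, 40.6 and 8.12 FPKM in Ctrl and 3.58, 2.96 and 7.82 FPKM in cKO, with A2 far above the other units (-1.59, SE 0.60, limma adjusted p = 0.607). The Sgk1 difference was -0.91 without A2 and -1.47 without A4. Slc12a4, which encodes a potassium-chloride cotransporter, was at 19.7 ± 1.64 and 23.2 ± 2.39 FPKM (0.23, limma adjusted p = 0.772). Wnk2, the second WNK gene by level, was at 17.6 ± 1.83 and 17.8 ± 0.572 FPKM (0.02, limma adjusted p = 0.991), and its sign turned without A2, A8 or A10. Without A4, 1 gene of this list had an unadjusted p under 0.05.

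Of 15 substrates and partners named for these adaptors, 10 were tested, and 0 passed or had an unadjusted p under 0.05 (median -0.01). Grik2, the kainate receptor subunit bound by KLHL24, measured 5.73 ± 0.676 FPKM in Ctrl and 4.72 ± 0.170 FPKM in cKO (limma adjusted p = 0.833). Fyn, a kinase bound by Mayven, measured 19.0 ± 0.729 and 21.4 ± 2.22 FPKM (limma adjusted p = 0.853). The units of Grik2 and of Fyn did not overlap, while those of the other 8 did. Over all tested genes the units did not overlap in 13% in either direction.

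**Figure D4:**
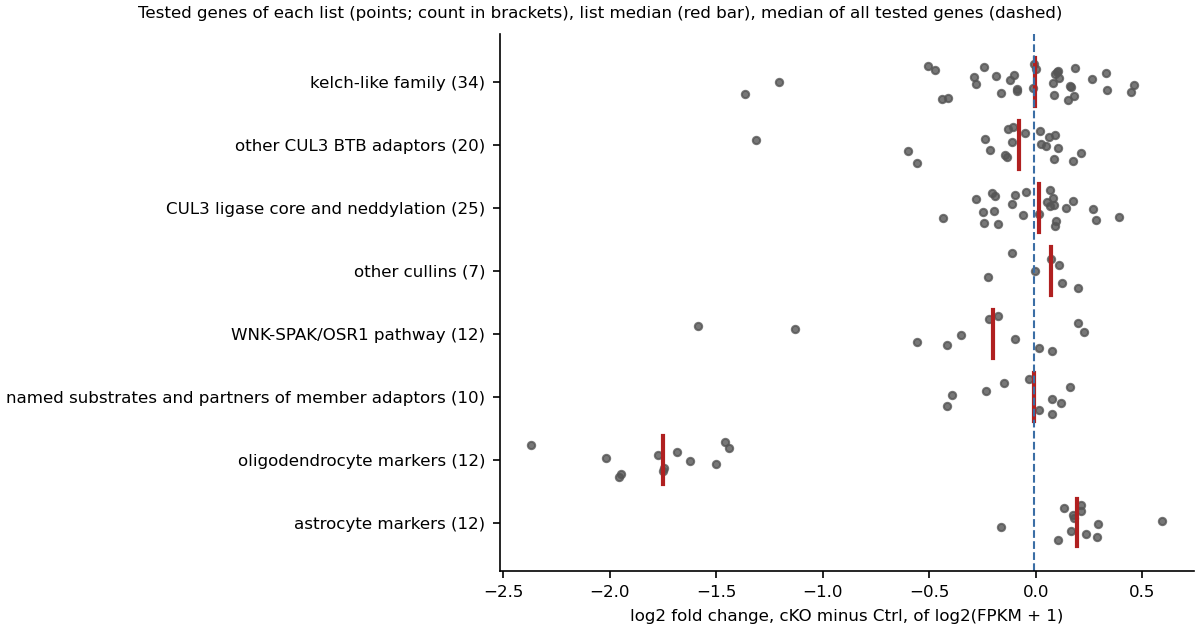
Log2 difference of cKO minus Ctrl on the log2(FPKM + 1) scale (horizontal axis) for the tested genes of each list (points), with the list median as a red bar and the median of all tested genes as a dashed line. The adaptor and cullin lists have medians between -0.08 and 0.07 and the WNK list has -0.20, with Klhl2, Klhl4, Kctd13, Sgk1 and Slc12a2 far to the left, and the oligodendrocyte markers have a median of -1.75.

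Markers of oligodendrocytes, a cell type other than the one sorted for, moved with the genotype beside Klhl2 and Klhl4. All 12 oligodendrocyte markers had a lower mean in cKO, 11 of them with units that did not overlap, and none was at 0 in every library. Of all tested genes, 7.22% were lower in cKO with units that did not overlap. Their summed level was 2172, 2354 and 1096 FPKM in Ctrl A1, A2 and A8, and 313, 447 and 753 FPKM in cKO A4, A9 and A10. Within cKO the units had the same order by mean, A4 below A9 below A10, for this sum, for Klhl2 and for Klhl4. In Klhl2 the libraries of A4 and A9 crossed, with A9 S2 (2.58 FPKM) below A4 S2 (2.63 FPKM). Within Ctrl, A8 was lowest by mean for the sum and for Klhl2 but highest for Klhl4. Libraries crossed here too: A1 S1 (7.04 FPKM) lay below both A8 libraries in Klhl2 (7.37 and 7.42 FPKM). In Klhl4, A8 S2 (9.57 FPKM) lay below A2 S2 (10.7 FPKM). Mbp, which encodes myelin basic protein, measured 88.7 ± 26.4 FPKM in Ctrl against 28.4 ± 10.9 FPKM in cKO (log2 difference -1.63, limma adjusted p = 0.320). Without A4 the difference of Mbp was -1.43, and the median of the 12 markers was -1.43 against -1.75 with it. The part of oligodendrocyte RNA in the Klhl2, Klhl4, Kctd13 and Slc12a2 values was not tested.

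The other marker lists gave these summed ranges. Astrocyte markers were higher by mean in 11 of 12 genes, with sums of 3918 to 4825 FPKM in Ctrl and 4707 to 5369 FPKM in cKO. Oligodendrocyte precursor markers were lower in 6 of 6 genes (127 to 167 FPKM and 77.5 to 106 FPKM). In Ctrl their sum was mostly Olig1 (83.2 FPKM), Olig2 (30.3 FPKM) and Sox10 (26.8 FPKM). Pdgfra (0.804 FPKM), Cspg4 (2.28 FPKM) and Gpr17 (1.57 FPKM) were low, so the sum does not show a change in precursor cells. Microglial markers were higher by mean in 8 of 8 genes (14.2 to 19.1 FPKM and 20.7 to 36.5 FPKM), with Tmem119 and Aif1 under 1 FPKM in every library. Only 3 of the 8 were high enough to be tested, Aif1 was nearly equal (0.206 and 0.209 FPKM), and A4 had the highest sum. Without A4, P2ry12 stayed higher in cKO (5.83 FPKM against 2.44 FPKM in Ctrl) and Cx3cr1 did not (0.0627 FPKM against 0.130 FPKM). Neuronal markers were lower in 6 of 8 genes (9.70 to 11.4 FPKM and 4.88 to 8.82 FPKM), with Rbfox3, Slc17a7, Gad1 and Gad2 under 1 FPKM in every library. Endothelial and mural markers (63.6 to 133 FPKM and 104 to 116 FPKM; 4 of 8 lower) and ependymal markers (59.7 to 229 FPKM and 50.8 to 149 FPKM; 5 of 5 lower) overlapped between the genotypes. No marker of any list was at 0 in every library, and the part of these cells in the results was not tested.

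**Figure D5:**
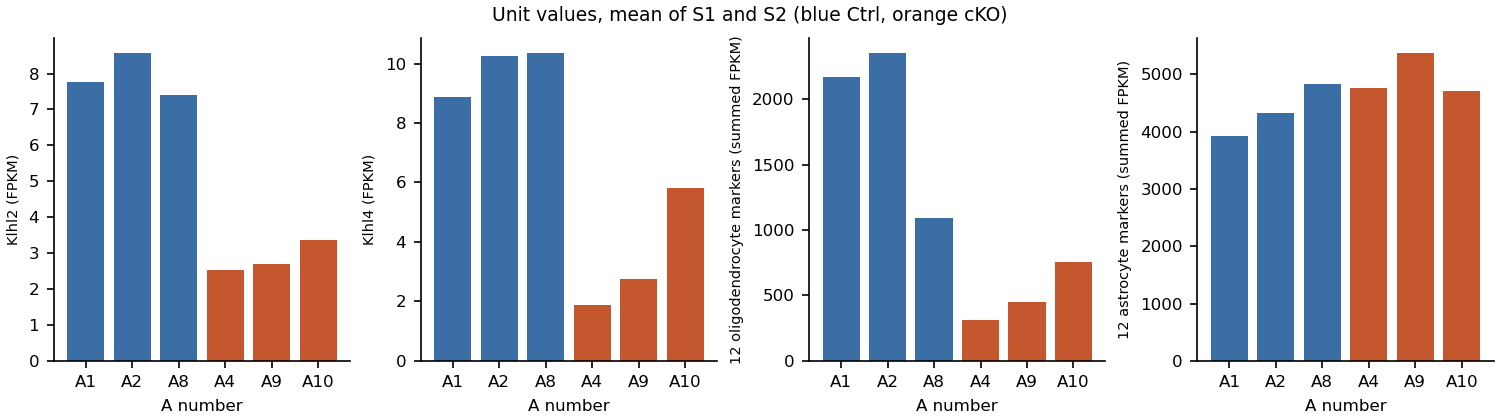
Bars give the unit values (mean of S1 and S2, axes from 0) of Klhl2 and Klhl4 in FPKM and of the summed oligodendrocyte and astrocyte markers in summed FPKM, by A number. Klhl2, Klhl4 and the oligodendrocyte sum are lower in each cKO unit (orange) than in each Ctrl unit (blue), and A8 is lowest of the Ctrl units for the oligodendrocyte sum (1096 FPKM).

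The genes whose pattern was most like Klhl2 were taken by Pearson r of log2(FPKM + 1) over the 6 units, which share the genotype contrast that picked Klhl2. They were Pip4k2a (r = 0.996), a phosphoinositide kinase gene, the kinase gene Pak5 (0.995), the ferritin light chain gene Ftl1 (0.995), the secretory carrier protein gene Scamp5 (0.993) and Nbas (0.992). Pip4k2a measured 34.5 ± 2.33 FPKM in Ctrl and 20.8 ± 1.51 FPKM in cKO, and Pak5 measured 4.29 ± 0.391 and 1.09 ± 0.451 FPKM (SD over 3 units). Their log2 differences were -0.71 and -1.36, and without A4 -0.69 and -1.28. Of 15929 other tested genes of at least 200 bases, 119 had an r of at least 0.95 and 362 of at least 0.9. The r was 0.94 for Klhl4, 0.79 for Wnk1 and 0.19 for Klhl3, and it ran from 0.88 to 0.96 over the oligodendrocyte markers.

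Of the genes beside Klhl2 on chromosome 8, those outside its body had overlapping units. Within 500 kb of Klhl2 in the deposited coordinates, 4 genes were tested. Msmo1, a cholesterol synthesis gene 5.88 kb away, measured 75.7 ± 9.90 FPKM in Ctrl and 82.7 ± 11.4 FPKM in cKO (log2 difference 0.13, limma adjusted p = 0.917). Cpe, the carboxypeptidase E gene 46.6 kb away, measured 930 ± 118 and 905 ± 97.0 FPKM (-0.04, limma adjusted p = 0.982). Tmem192, 97.2 kb away on the other side, measured 1.55 ± 1.07 and 2.21 ± 1.54 FPKM (0.31, limma adjusted p = 0.935). Gm10997, inside Klhl2 on the same strand, measured 3.03, 6.53 and 0.619 FPKM in Ctrl and 0.881, 0.377 and 0.706 FPKM in cKO (-1.17, limma adjusted p = 0.714). Its difference was -1.27 without A4, -0.65 without A2 and -1.76 without A8. Its A8 value lay within the cKO range, unlike that of Klhl2. Whether reads were counted by strand is not given in the sources used here, so reads of overlapping genes may not be told apart. Of the other genes that overlap one of the 10, Gm37902 in Cul3 (0.14), Gm16199 and Mir706 in Wnk1 (0.80 and -1.63), Mir874 in Klhl3 (0.71) and Gm56099 in Klhl5 (-0.37) were tested, and none passed.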

How the data were processed

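Hippocampal astrocytes were sorted and sequenced with SMART-Seq V4 libraries and paired reads of 125 bases, per the labels' protocols. The authors deposited FPKM values for 56941 genes in 12 libraries, with gene lengths in bases. The submitters' processing notes name FastQC, STAR, featureCounts and DESeq2 without roles, and the builds mm10 and GRCm38. Of 52000 identifiers matched to GENCODE M21 (GRCm38), 2.87% had the same start and end, and 0 of the 10 genes did, so coordinates are given as deposited with the build unsettled; promoter coordinates are RefSeq's (GRCm38.p6).

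FPKM times length summed to 1000000 in each library. Depth was recovered from the steps between low values (whole within 0.02 read for 82.8% to 86.3% of genes above 0). Rows sharing a symbol were summed (147 symbols). Genes with a mean of at least 1 FPKM were tested with limma 3.58.1 in R 4.3.3 (lmFit, eBayes with variance trend, two-sided, Benjamini-Hochberg over 17540 genes) on log2(FPKM + 1), S1 and S2 averaged. Floors of 3 reads cover counting error only. Named genes were the 10 genes, the 3 smallest p and 3 highest levels of each list, the 5 genes most like Klhl2, its neighbours and overlapping genes, Tnfrsf1b and set markers; others were named after their values were seen, and some genes of the rule are not reported here. The genes and lists were chosen with earlier results of these data known. Alternatives are given in the closing section.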

Additional observations from a re-analysis of the deposited data

How the results depend on the processing

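With limma, 0 genes passed between the genotypes also with a pseudocount of 0.1, under both other filters, both scalings, both eBayes variants, the log2 of mean FPKM, and in S1 or S2 alone. Leaving out each A number gave 0 to 1 (1 without A1). Fitting all 12 libraries, with a random effect for the A number, gave 112 genes, and 80 genes with the replicate block. Both fits enter S1 and S2 of one A number as separate libraries, where the main test averages them. The added libraries bring no further units, so the p-values of these fits may be too small. Their counts are not read as genes that differ between the genotypes. The replicate number marks S1 or S2 of one A number and pairs no Ctrl with a cKO unit. Apart from Klhl2, for which no test is given, neither fit called any of the 10 genes, and Klhl4 had a limma adjusted p of 0.0578 and, with the replicate block, 0.0916. They called Mbp, Pip4k2a and Nbas, and Pak5 without the block. How far the separate entry of S1 and S2 accounts for the higher counts was not tested.

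The Klhl2 difference was -1.44 with a pseudocount of 0.1, where low values weigh more, and ran from -1.30 to -1.14 when each A number was left out. Klhl4 kept its sign in all 18 alternatives (-1.72 to -1.10 when each A number was left out), and so did Wnk1 (-0.58 to -0.32). Sign changes without a call came mainly from leaving out an A number: Klhl3 ran from -0.38 to 0.24, Klhl20 from -0.19 to 0.23, Cul3 from -0.0659 to 0.17, Ivns1abp from -0.54 to 0.0367, Spop from -0.28 to 0.0112, Cand1 from -0.0285 to 0.16, Cul4b from -0.0719 to 0.12, Cul2 from -0.0981 to 0.25, Wnk2 from -0.0264 to 0.0974, Cpe from -0.12 to 0.0606, Tmem192 from -0.0553 to 0.63, Mir874 from -0.0261 to 1.25, Gm56099 from -1.25 to 0.33 and Gm37902 from -0.15 to 0.50. Without a sign change, Gm16199 ran from 0.37 to 1.44 and Mir706 from -2.63 to -1.05. Cul4b was also 0.0711 and 0.0229 under upper quartile and median-of-ratios scaling and 0.0119 in S2, Wnk2 was -0.0001 in S2, and Cpe was 0.0425 under upper quartile scaling. Of 918 gene and setting pairs, 27 changed sign. Depth limits Wnk4, at 0 to 24 reads a library.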
